A study of Mus musculus with 8 samples.

Results

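The kinesin, dynein and dynactin transport motors are 38 genes for the subunits and close partners of the motors that carry cargo along microtubules, and their RNA was compared between wild type and Ptbp2 knockout mouse cortex. The genes were taken from a list of non-mitotic motor genes, and a probe set (a small group of array probes, usually within 1 exon) counted as theirs when the platform annotation gave it exactly 1 gene symbol and that symbol was on the list. This gave 1118 probe sets, of which 1016 had a mean log2 signal at or above 6.84, the median over the 625534 probe sets of the table. All 38 genes kept at least 4 such probe sets, the minimum for a gene to be tested, and they made up 38 of the 12960 genes tested.

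Neurons depend on these motors because most proteins and organelles of an axon are made in the cell body. Kinesins mostly walk towards the plus ends of microtubules, which point to the axon tip, and cytoplasmic dynein walks back towards the cell body with the help of dynactin, the lissencephaly protein Lis1 and cargo adaptors. Ptbp2, the polypyrimidine tract binding protein of neurons, binds RNA and mostly represses alternative exons while neurons mature, so each gene was examined both for its level and for the share that single probe sets take of its signal.

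The samples were cortices of embryos at embryonic day 18.5 on a mixed CD1 and C57BL/6 background, 4 wild type and 4 Ptbp2 knockout, with 1 Affymetrix exon array per embryo and the embryos described as biological replicates. The labels do not say how the knockout allele was made or whether littermates were compared. Tissue was taken whole, so a lower signal from fewer cells of a type cannot be told apart from less RNA per cell.

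The deposited log2 signal had array medians from 6.82 to 6.93, and precision depends on the 4 arrays per group, since an array has no read depth. Wild type array 3 and knockout array 3 lay farthest from the centre of the first 2 principal components (21.6 and 19.6), with wild type array 1 next (18.2). One or the other array 3 was the lowest of the 8 arrays for 22 of the 38 motor genes, 11 each, a count not made over all genes. The median deviation of all genes from their mean over the arrays was -0.083 on wild type array 3 and -0.0067 on knockout array 3. Over the motor genes it was -0.039 and -0.061. On wild type array 1 it was 0.092 over all genes and 0.095 over the motor genes. Ptbp2 itself averaged 11.20 ± 0.14 (SD, n = 4) in wild type and 5.95 ± 0.34 in knockout, a limma log2 difference of -5.25 with an adjusted p of 1.7e-12. Its knockout signals lay under the filter value, and whether its probe sets lie in the deleted part is not known here. Of 7 tested markers of cortical identity, 0 were called and their mean stayed between 9.999 and 10.34 on every array, and of 8 neuron markers 6 were lower and 1, Snap25, was called. Each of 5 tested markers of the striatum, a neighbouring region, was lower in the knockout at an unadjusted p under 0.05, and the mean of 6 choroid plexus markers was 7.25 on knockout array 2 against 8.59 to 8.97 on the other knockout arrays.

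No motor gene was called as changed in level. A gene's level on an array was the median of its retained probe sets, and limma with Benjamini-Hochberg adjustment over all 12960 genes called 0 of the 38 at 0.05, with adjusted p between 0.75 and 0.99, where it called 15 genes in all (0.116%). At an unadjusted p under 0.05 the count was 1 motor gene, Kif9, against 841 of all genes (6.49%). The wild type and knockout arrays did not overlap for 1 motor gene, Kif17, against 473 of all genes (3.65%).

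Of the 38, 19 averaged higher and 19 lower in the knockout, with a median log2 difference of 0.0032 beside 0.0027 for all genes tested. The difference was under 0.1 in size for 27 motor genes (71.1%), and for 61.8% of all genes. A missed threshold does not show that levels were equal. The 95% intervals give a range for each difference in normalized signal, each for its gene alone and not for the 38 together. All 38 intervals lay within -0.5 and 0.5, as did 94.3% of those of all genes tested. The lowest bound was -0.48, for Kif9, and the highest was 0.43, for Dctn3. The spread between arrays of 1 group was also small, with a median SD of 0.12 over the motor genes and 0.15 over all genes.

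**Figure D1:**
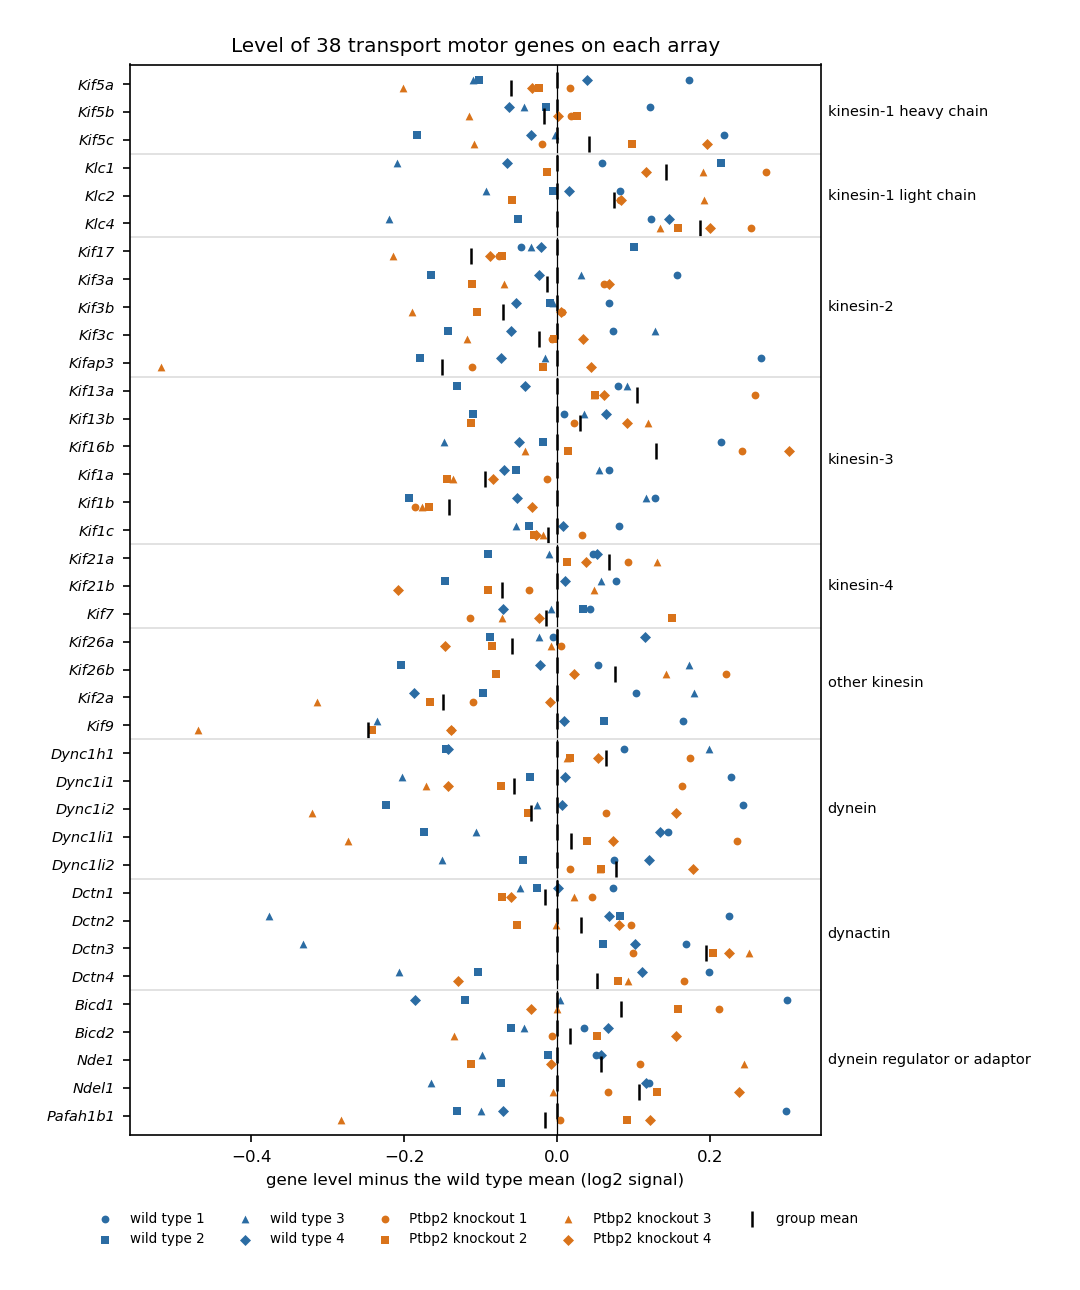
Level of each of the 38 motor genes on each of the 8 arrays, as log2 signal minus the gene's wild type mean, with wild type in blue, Ptbp2 knockout in orange, the shape giving the array number and a black bar the group mean. The groups interleave for every gene but Kif17, and the most distant single point is knockout array 3 for Kifap3.

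The kinesin-1 heavy chains Kif5a, Kif5b and Kif5c are the motor subunits of conventional kinesin, which moves mitochondria, vesicles and other axonal cargo. Kif5a averaged 10.65 ± 0.13 (SD, n = 4) in wild type and 10.59 ± 0.097 in knockout, Kif5b 10.62 ± 0.083 and 10.61 ± 0.067, and Kif5c 11.19 ± 0.17 and 11.23 ± 0.13. None of these differences exceeded the spread between arrays: the limma log2 differences were -0.060, -0.017 and 0.042, with SEs of 0.088 to 0.11.

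The light chains Klc1, Klc2 and Klc4 bind cargo and hold the heavy chains inactive until it is bound, and all 3 averaged higher in the knockout without a call. Klc4 read 8.43, 8.26, 8.09 and 8.46 on wild type arrays 1 to 4 and 8.56, 8.47, 8.44 and 8.51 on knockout arrays 1 to 4. Only knockout array 3 lay within the wild type range, and the low wild type array 3 widened that range. The log2 difference for Klc4 was 0.19 ± 0.099 (SE), with an adjusted p of 0.81 by limma and an exact two-sided permutation p of 0.057 over the 8 arrays. It was 0.11 without wild type array 3 and 0.062 at a filter on the 75th percentile.

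Klc1 read 10.97, 11.12, 10.70 and 10.85 in wild type and 11.18, 10.90, 11.10 and 11.03 in knockout. Wild type array 2 was above 3 of the 4 knockout arrays, so the groups overlapped widely. Its log2 difference was 0.14 ± 0.11 (SE; limma adjusted p 0.90; exact permutation p 0.26), and it became -0.00066 when the gene value was the mean of its probe sets, which did not all move together, as described further on. Without wild type array 3 it was 0.073, and 0.21 without wild type array 2. Klc2 averaged 8.86 ± 0.072 and 8.93 ± 0.10.

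The kinesin-2 genes all averaged lower in the knockout, by small amounts, and again none was called. Kif3a, Kif3b and Kif3c are motor subunits that pair with one another and, through Kifap3, the cargo-binding subunit, carry vesicles along axons and material into cilia. Kif3a averaged 10.72 ± 0.13 in wild type and 10.70 ± 0.091 in knockout, Kif3b 9.98 ± 0.051 and 9.91 ± 0.095, and Kif3c 10.71 ± 0.12 and 10.69 ± 0.065. The differences of Kif3a and Kif3c, -0.013 and -0.023, turned positive in 5 and 7 of the 18 alternative analyses.

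Kifap3 had the widest spread within groups of all the motor genes, with a pooled SD of 0.22. Its level averaged 11.27 ± 0.19 in wild type and 11.12 ± 0.25 in knockout, where array 3 was the lowest at 10.75 and the other 3 arrays lay between 11.16 and 11.32. Its log2 difference was -0.15 ± 0.13 (SE).

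Kif17, a kinesin-2 motor that carries NMDA receptor vesicles in dendrites, was the motor gene without overlap. It read 7.59, 7.73, 7.60 and 7.61 on the wild type arrays and 7.56, 7.56, 7.42 and 7.55 on the knockout arrays. The gap between the lowest wild type and the highest knockout array was small beside the range within either group. The difference was -0.11 ± 0.087 (SE), the limma adjusted p was 0.90 and the exact two-sided permutation p was 0.029, below which a comparison of 4 with 4 arrays cannot go. Kif17 was tested on 9 of its 22 probe sets, the others being dimmer than the filter, and differed by -0.29 with all of them and by -0.078 without knockout array 3.

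The kinesin-3 motors divided evenly, 3 higher and 3 lower. Kif1a, the main carrier of synaptic vesicle precursors, averaged 11.52 ± 0.072 in wild type and 11.43 ± 0.060 in knockout, and Kif1c, another vesicle motor, 8.34 ± 0.060 and 8.33 ± 0.029. Kif1b, a carrier of mitochondria and synaptic vesicle precursors, read 11.68, 11.36, 11.67 and 11.50 on the wild type arrays and 11.36, 11.38, 11.37 and 11.52 on the knockout arrays. For Kif1b 3 knockout arrays lay together at the level of the lowest wild type array, and the difference of -0.14 ± 0.097 (SE) had a limma adjusted p of 0.88 and an exact permutation p of 0.26. It ran from -0.21 to -0.072 over the alternatives.

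Kif16b, an early endosome motor, read 8.20, 7.97, 7.83 and 7.93 in wild type and 8.23, 8.00, 7.94 and 8.29 in knockout. Array 1 was high in both groups, and the difference was 0.13 ± 0.11 (SE; limma adjusted p 0.91; exact permutation p 0.20). It was 0.24 without wild type array 1 and 0.072 without knockout array 4. The endosomal and vesicle motors Kif13a and Kif13b averaged 8.46 ± 0.11 and 8.56 ± 0.10, and 8.20 ± 0.077 and 8.23 ± 0.10, in wild type and knockout.

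In the kinesin-4 family, Kif21a and Kif21b restrain microtubule growth in axons and dendrites, and Kif7 organises the ciliary tip for Hedgehog signalling. Kif21a averaged 10.33 ± 0.066 in wild type and 10.40 ± 0.053 in knockout, Kif21b 10.91 ± 0.10 and 10.83 ± 0.11, and Kif7 8.31 ± 0.052 and 8.30 ± 0.12. None of the 3 was called, and the 95% intervals of their differences ran from -0.27 to 0.25.

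Among the other kinesins, Kif9, a kinesin of motile cilia and flagella, had the largest difference of the 38 genes at the filter used, though not without a filter, where it was -0.12 and that of Kif17 -0.29. It read 8.02, 7.91, 7.62 and 7.86 on the wild type arrays and 7.71, 7.61, 7.38 and 7.71 on the knockout arrays. Wild type arrays 1, 2 and 4 lay above every knockout array, and wild type array 3 lay among the knockout arrays. The difference was -0.25 ± 0.11 (SE), with a 95% interval from -0.48 to -0.016, and ranged from -0.33 to -0.12 over 17 alternatives, with -0.16 when wild type array 1 was left out. It was not called: the limma adjusted p was 0.75, or 0.28 to 1.00 over the alternatives, and the exact two-sided permutation p was 0.086. Markers of motile cilia of the ependyma moved the same way as Kif9. All 5 tested were lower in the knockout, with a median difference of -0.18, where 6355 of all 12960 genes were lower. At an unadjusted limma p under 0.05 there were 2, against 6.49% of all genes, and 0 were called. Their mean level was 7.51 to 7.85 over the wild type arrays and 7.37 to 7.56 over the knockout arrays. All tested markers were also lower for the striatum (5), choroid plexus (6) and oligodendrocyte lineage (5). All were higher for intermediate progenitors (3), microglia (2) and erythroid cells (1). Of the 6 listed markers of motile cilia 5 had enough retained probe sets to be tested, with a lowest mean of 7.16. Only probe sets at or above the filter were used, so a mean above it was fixed in advance. Kif9 itself was tested on 12 of its 28 probe sets. The part of the cilia markers in the Kif9 difference was not tested.

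Kif2a, which depolymerises microtubule ends and prunes axon branches, read 11.12, 10.92, 11.19 and 10.83 in wild type and 10.90, 10.85, 10.70 and 11.00 in knockout. The groups overlapped, and the difference was -0.15 ± 0.11 (SE; limma adjusted p 0.88; exact permutation p 0.23). It shrank to -0.090 without wild type array 3, to -0.095 without knockout array 3, to -0.035 without both and to -0.0045 with array weights. Kif26a and Kif26b, kinesins reported to lack motor activity that act in signalling and cell adhesion, averaged 9.07 ± 0.085 and 9.01 ± 0.071, and 9.20 ± 0.16 and 9.28 ± 0.13.

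The subunits of cytoplasmic dynein, the motor for transport back to the cell body, had no call in level either. The heavy chain Dync1h1, which holds the motor domain, averaged 11.06 ± 0.17 in wild type and 11.13 ± 0.075 in knockout. The intermediate chains, which bind dynactin, averaged 10.27 ± 0.18 and 10.22 ± 0.15 for Dync1i1, and 11.44 ± 0.19 and 11.41 ± 0.21 for Dync1i2. The light intermediate chains, which hold the cargo adaptors, averaged 10.17 ± 0.16 and 10.19 ± 0.21 for Dync1li1, and 10.69 ± 0.12 and 10.77 ± 0.070 for Dync1li2. The log2 differences over the 5 dynein genes ran from -0.056 to 0.077.

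Dynactin links dynein to cargo and keeps it on the microtubule. Its largest subunit p150Glued, encoded by Dctn1, averaged 10.20 ± 0.053 in wild type and 10.19 ± 0.059 in knockout. The shoulder subunit dynamitin, Dctn2, averaged 10.59 ± 0.26 and 10.62 ± 0.071, and the pointed-end subunit Dctn4 10.05 ± 0.19 and 10.10 ± 0.13. For Dctn1 the arrays of both groups kept within a narrow band, whereas the wide wild type spread of Dctn2 came with 1 low array, wild type 3, at 10.21.

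The other shoulder subunit, Dctn3, had the largest positive difference of the 38 at the filter used. It read 10.07, 9.96, 9.57 and 10.001 in wild type and 9.999, 10.10, 10.15 and 10.12 in knockout, so that wild type array 3 again stood low. The difference was 0.20 ± 0.11 (SE), with a limma adjusted p of 0.83 and an exact permutation p of 0.086, and it was 0.085 without wild type array 3 and 0.066 without wild type 3 and knockout 3.

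Lis1, encoded by Pafah1b1, and its partners Nde1 and Ndel1 raise the force and persistence of dynein, and loss of Lis1 or Nde1 causes malformations of the human cortex. Pafah1b1 averaged 11.68 ± 0.20 in wild type and 11.67 ± 0.18 in knockout, Nde1 8.80 ± 0.073 and 8.86 ± 0.15, and Ndel1 9.89 ± 0.14 and 9.99 ± 0.10. The adaptors Bicd1 and Bicd2, which tether vesicles and nuclei to dynein and dynactin, averaged 8.67 ± 0.22 and 8.76 ± 0.12, and 9.10 ± 0.061 and 9.12 ± 0.12. None of the 5 was called, with limma adjusted p between 0.92 and 0.99.

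**Figure D2:**
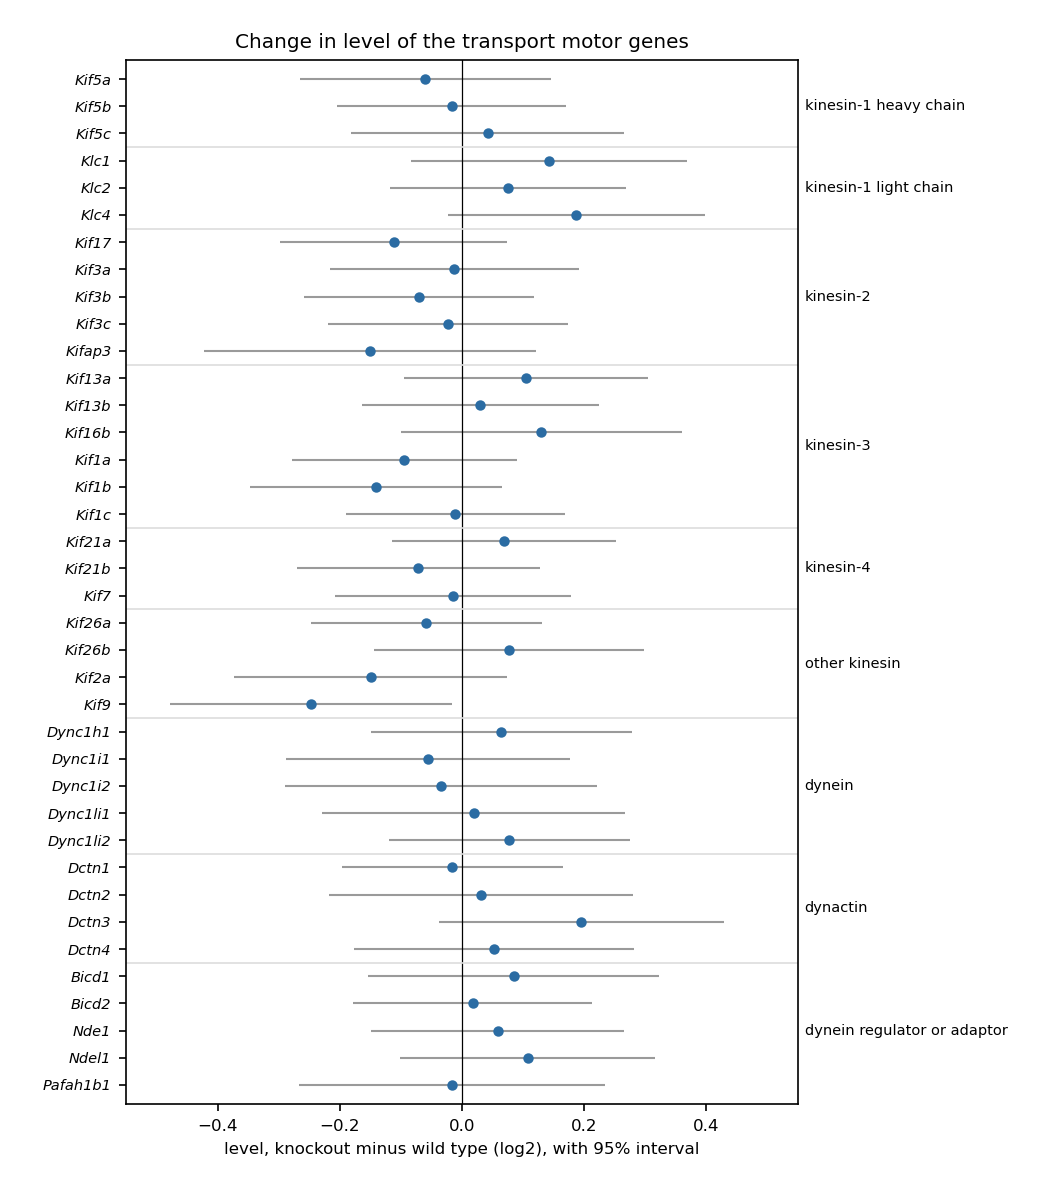
Difference in level, knockout minus wild type in log2 units, for the 38 motor genes grouped by role, with points for the limma estimates and lines for the 95% intervals. The intervals all lie between -0.48 and 0.43, and only that of Kif9 leaves out 0.

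Genes outside the 38 were read from 6 lists, which held related transport genes but also mitotic kinesins and tubulins. The dynein light and second dynein chains had 3 of 6 tested genes higher and 3 lower (median difference 0.0056), the further dynactin subunits and dynein regulators 8 of 14 higher and 6 lower (0.040), and the kinesin adaptors and cargo linkers 9 of 17 higher and 8 lower (0.017). The remaining non-mitotic kinesins were 0 of 8 higher (-0.11), the mitotic kinesins 10 of 12 higher (0.11), and the tubulins 4 of 12 higher (-0.046). Limma called 0 genes of any list after adjustment. At an unadjusted p under 0.05 there were 7 of the 69 tested (10.1%), against 6.49% of all genes.

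Those 7 were Hook2 and Hook3, adaptors that activate dynein, Actr10, a subunit of dynactin, Kif6, the mitotic kinesins Kif18a and Kif23, and the tubulin Tuba4a. Hook3 read 9.81, 9.73, 9.95 and 9.71 in wild type and 9.61, 9.39, 9.44 and 9.49 in knockout, without overlap, and differed by -0.32 (limma adjusted p 0.42). Tuba4a read 9.74, 9.34, 9.11 and 9.37 in wild type and 8.93, 8.99, 8.89 and 8.91 in knockout, also without overlap, and differed by -0.46 (limma adjusted p 0.28). Actr10, Kif6, Hook2, Kif18a and Kif23 differed by -0.30, -0.27, 0.22, 0.22 and 0.22, with overlap between the groups.

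Usage, the change of a probe set relative to the other probe sets of its gene, was called as changed for 4 motor probe sets in as many genes. The limma function diffSplice made these calls among 1016 motor probe sets at an adjusted p under 0.05, 2 raised and 2 lowered in the knockout, where it called 414 of 195604 probe sets of all genes without Ptbp2 (0.212%). They belonged to Kif21b, Kif3b, Kifap3 and Dync1li2. The Simes test, which combines the probe sets of a gene, called the same 4 motor genes, beside 297 of 12959 genes in all (2.29%).

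Looser counts among the motor probe sets are set beside those of the whole table. Motor probe sets with an unadjusted p under 0.05 in diffSplice numbered 63 (6.20%, against 4.57% of all), and the groups did not overlap in usage for 32 (3.15%, against 2.92%). The splicing index, which subtracts the gene's median from each probe set and uses that probe set's own spread, called 0 of the motor probe sets after limma adjustment, where it called 17 in all (0.00869%), and had 50 at an unadjusted p under 0.05 (4.92%, against 5.27%). In signal as such, without reference to the gene, limma called 0 motor probe sets, beside 288 of 312767 retained probe sets in all (0.0921%). At an unadjusted p under 0.05 in signal there were 49 motor probe sets (4.82%), a smaller share than the 7.44% of all retained probe sets. By signal, 558 motor probe sets were higher and 458 lower in the knockout. Their median difference was 0.012, beside 0.0062 for the probe sets of all genes tested. Genes with many probe sets weigh most in this count: Dync1h1 had 66 higher and 17 lower, and Kif1b 10 and 52. By gene level, 19 were higher and 19 lower.

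**Figure D3:**
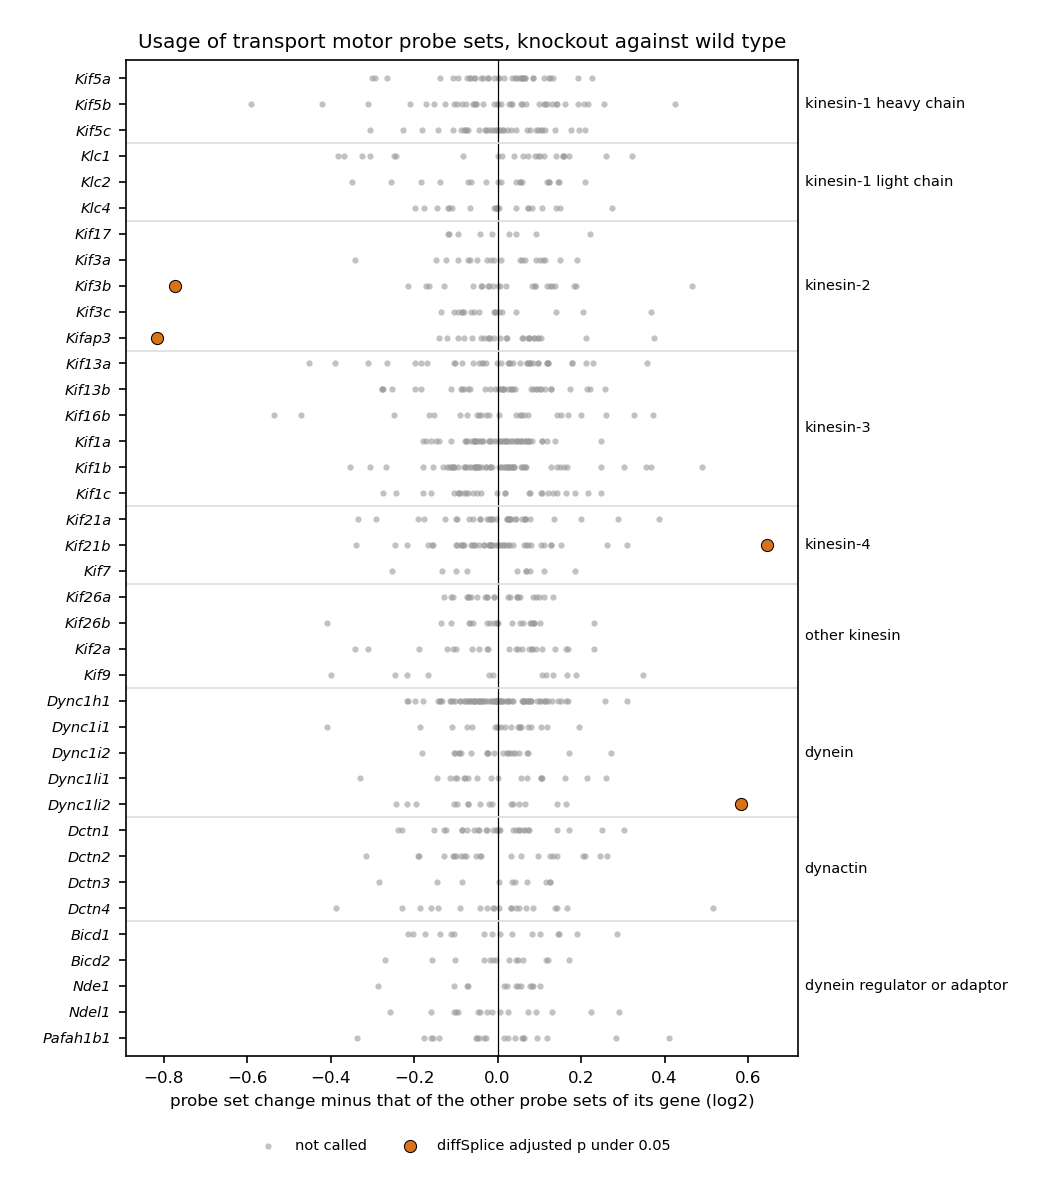
Usage change of each of the 1016 motor probe sets in log2 units, by gene and role, with the 4 called by diffSplice in orange. The called probe sets lie at -0.82, -0.77, 0.58 and 0.65, apart from the other probe sets of their genes.

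Probe set 5130589 of Kif21b had the lowest adjusted p. Its signal was 9.66, 9.64, 9.32 and 9.20 on the wild type arrays and 10.14, 10.001, 10.21 and 9.90 on the knockout arrays, so every knockout array was above every wild type array. Relative to the median of Kif21b it stood at -1.32, -1.11, -1.64 and -1.72 in wild type and at -0.73, -0.81, -0.75 and -0.79 in knockout, where the 4 arrays differed little. The median of the other 47 probe sets of Kif21b moved by -0.067, and 33 of the 47 were lower. Not all of them kept to the gene. In usage the groups also did not overlap for 4875182 (-0.34 in diffSplice), 4746586 (-0.25), 5252104 (0.31) and 5408681 (0.15), none called in the main analysis. With the called one these were 5 of 48 retained probe sets, where the share over all genes was 2.92%. Usage rose by 0.65 in diffSplice, with an adjusted p of 2.4e-05, and by 0.68 ± 0.13 (SE) in the splicing index, whose limma adjusted p was 0.64. Of 17 alternatives, 16 kept the call, and only the splicing index lost it.

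Probe set 4994670 of Kif3b went the other way. Its signal was 9.67, 9.65, 9.66 and 9.42 in wild type and 8.10, 9.18, 8.49 and 9.27 in knockout, again without overlap. The knockout arrays were far apart, with arrays 1 and 3 the lowest and an SD of 0.56 against 0.12 in wild type. The usage fell by 0.77 with a diffSplice adjusted p of 0.0013, and the splicing index gave -0.77 ± 0.24 (SE) with a limma adjusted p of 0.92. Before adjustment the p was 7.2e-07 in diffSplice and 0.010 in the splicing index, which uses the probe set's own spread. Without knockout array 1 the diffSplice difference was -0.53 and was no longer called (adjusted p 0.38, in a range from 2.5e-05 to 0.92 over the alternatives).

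The Kif3b partner Kifap3 also had 1 lowered probe set, 4892632. Its signal was 11.25, 10.41, 10.93 and 10.62 in wild type and 9.75, 10.46, 8.93 and 10.41 in knockout. As signal the groups overlapped, since knockout array 2 was above wild type array 2, and they separated only relative to the gene, at -0.29, -0.69, -0.32 and -0.58 in wild type and -1.41, -0.80, -1.83 and -0.91 in knockout. Usage fell by 0.82 with a diffSplice adjusted p of 0.0042, and the splicing index gave -0.76 ± 0.22 (SE) with a limma adjusted p of 0.92. Knockout arrays 1 and 3 were the lowest here as for Kif3b, with a knockout SD of 0.72. The call was lost without knockout array 1 (-0.76), without knockout array 3 (-0.56) and without wild type array 3 and knockout array 3 together (-0.52), with adjusted p of 0.11, 0.26 and 0.49, in a range from 5.4e-04 to 0.92 over the alternatives.

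Probe set 4651284 of Dync1li2 was raised. Its signal was 7.40, 7.19, 7.39 and 7.65 in wild type and 8.30, 7.87, 8.00 and 8.28 in knockout, without overlap and with like spreads, 0.19 and 0.21. Relative to the median of the gene it stood between -3.45 and -3.15 in wild type and between -2.88 and -2.40 in knockout. The other 16 probe sets of Dync1li2 moved by 0.14 in their median. Usage rose by 0.58 in diffSplice (adjusted p 0.024), and by 0.63 ± 0.12 (SE) in the splicing index (limma adjusted p 0.64).

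The Dync1li2 call was the least stable of the 4. It held in 10 of 16 alternatives and was lost in the splicing index and without wild type array 1, 2 or 4 or knockout array 1 or 4, where usage was 0.52 to 0.65 higher and the adjusted p lay between 0.053 and 0.35, beside 0.0022 to 0.64 over all its alternatives. For each of the 4 called probe sets the exact two-sided permutation p of the splicing index was 0.029. That is the lowest value 4 against 4 arrays can give, and any probe set without overlap in usage reaches it. The 4 were picked for their usage on these same arrays, so this p is no separate support.

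**Figure D4:**
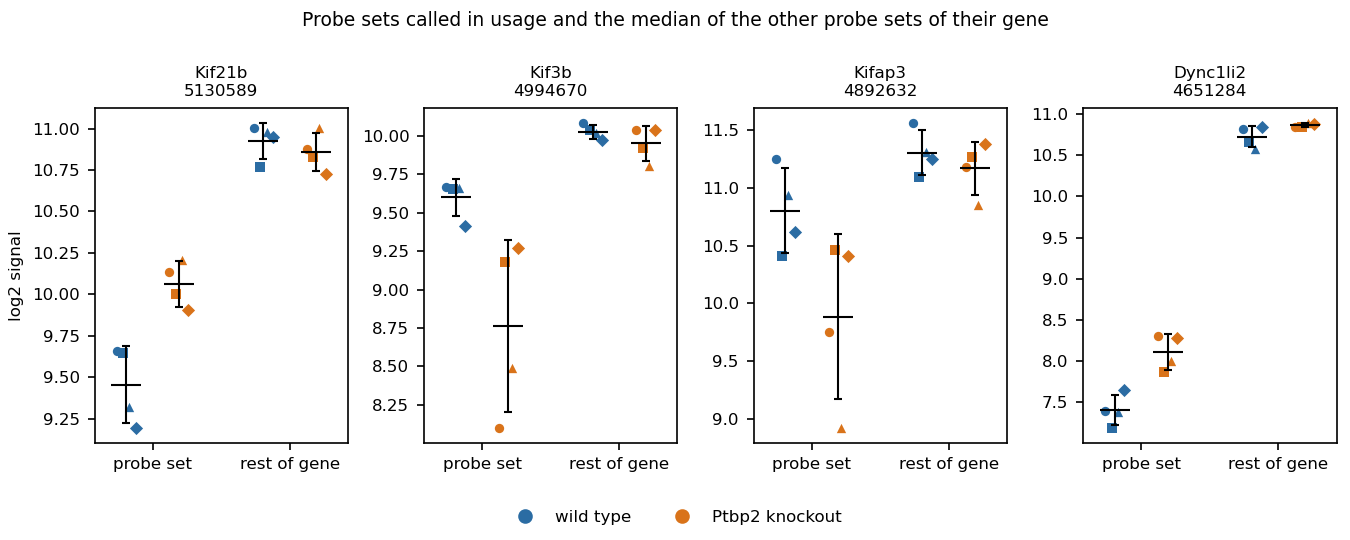
Log2 signal on each array of the 4 probe sets called in usage and of the median of the other probe sets of their gene, wild type in blue and Ptbp2 knockout in orange, with bars for the mean and SD. The Kif21b and Dync1li2 probe sets are higher in the knockout and the Kif3b and Kifap3 ones lower, while the rest of each gene moved by -0.14 to 0.14.

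Taking the probe set with the smallest diffSplice p of each gene, the next 6 genes gave 6 probe sets, none called. Probe set 4683035 of Kif1b (usage 0.49, adjusted p 0.068), 5596494 of Dctn4 (0.52, 0.13) and 4637631 of Kif21a (0.39, 0.20) were higher relative to their gene. Probe sets 5209212 of Kif5b (-0.59, 0.099), 5444153 of Klc1 (-0.38, 0.24) and 4972829 of Kif13a (-0.45, 0.33) were lower. Only the Klc1 probe set was without overlap in usage.

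Their signals show how wide the arrays lay. The Kif1b probe set read 7.99, 7.59, 8.14 and 8.26 in wild type and 8.62, 8.06, 8.58 and 8.36 in knockout. The Kif5b probe set read 9.43, 8.45, 8.83 and 8.64 in wild type and 8.25, 8.27, 7.64 and 8.77 in knockout. For both, 1 knockout array, 2 for Kif1b and 4 for Kif5b, lay inside the wild type range.

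The Dctn4 probe set read 7.74, 7.83, 6.75 and 7.68 in wild type and 7.84, 7.83, 8.22 and 8.29 in knockout. The Kif21a probe set read 8.83, 8.85, 9.37 and 8.92 in wild type and 9.60, 9.31, 9.58 and 9.15 in knockout. Wild type array 3 was the lowest for the first and the highest wild type array for the second. The Kif13a probe set read 8.65, 8.30, 8.77 and 8.51 in wild type and 8.20, 8.21, 7.87 and 8.52 in knockout, where array 4 lay inside the wild type range. Their exact permutation p in the splicing index were 0.057 for Kif1b and Kif13a, 0.086 for Kif5b and Kif21a and 0.14 for Dctn4.

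Klc1 was the motor gene in which most probe sets separated the groups. It was singled out after its values were seen, so what follows is a description without a test. Its RNA is known to be spliced into many forms that differ near the end of the protein, which sets the cargo the light chain binds. Of its 23 retained probe sets, 6 (26.1%) were lower in the knockout without overlap, both in signal and in usage. In the other direction, 2 were higher in signal without overlap and 0 in usage. Among the 12959 genes, 10 had at least 6 probe sets lowered in usage without overlap, and 27 had as large a share.

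The 6 Klc1 probe sets were 4307886, 4414490, 4991506, 5153475, 5157194 and 5444153. Their signals differed by -0.37 to -0.23, with a median of -0.30. The other 17 differed by -0.080 to 0.31, with a median of 0.097, and 16 of them were higher. Probe set 5444153 read 9.44, 9.72, 9.58 and 9.51 in wild type and 9.13, 9.03, 9.31 and 9.31 in knockout, and so lay lower on every knockout array than on any wild type array.

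Averaged over the 6, the signal was 9.54, 9.67, 9.57 and 9.63 on the wild type arrays and 9.27, 9.29, 9.32 and 9.31 on the knockout arrays. The 17 others averaged 11.52, 11.51, 11.32 and 11.46 in wild type and 11.63, 11.45, 11.53 and 11.61 in knockout, where the groups overlapped. The difference between the averages was -1.85 ± 0.095 (SD, n = 4) in wild type and -2.26 ± 0.091 in knockout, and since the 6 were picked for their separation, that of their average follows from the choice. None of the 6 was called by diffSplice with equal array weights, and with estimated array weights 3 were. Those weights also raised the diffSplice calls over all genes, from 414 to 2084. Which exons the 6 probe sets lie in was not analysed here.

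**Figure D5:**
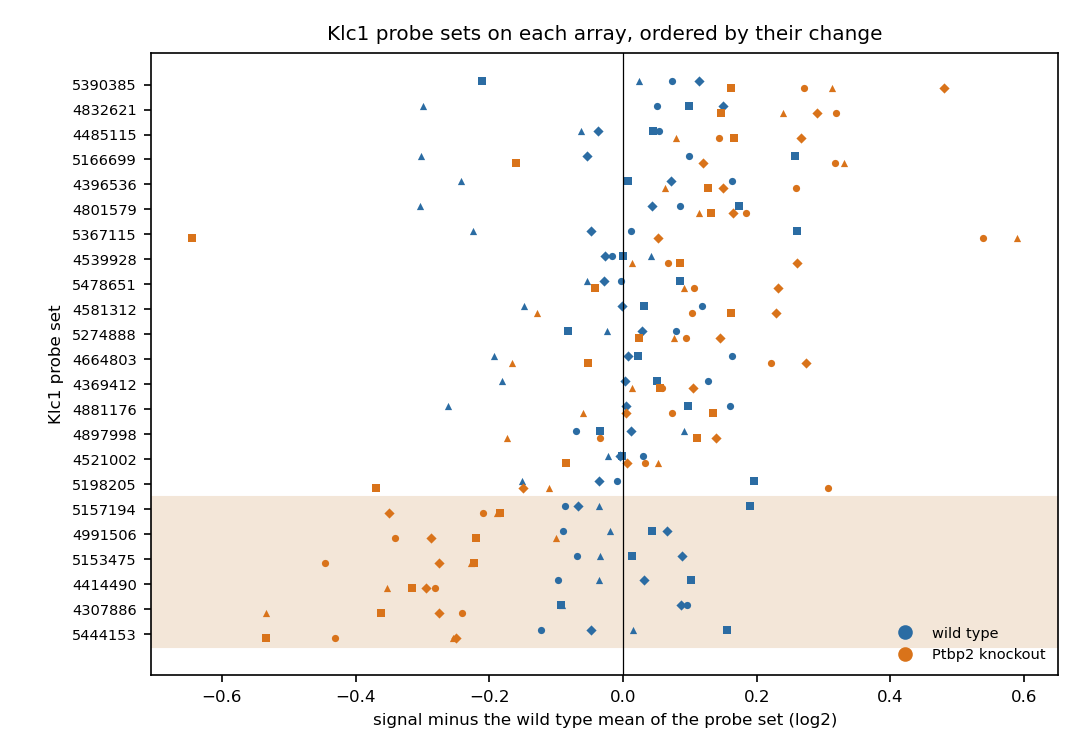
Signal of the 23 retained Klc1 probe sets on each array, minus the wild type mean of the probe set in log2 units, with wild type in blue and Ptbp2 knockout in orange and the shape giving the array number. The shaded rows are the 6 probe sets whose groups do not overlap in usage, with differences from -0.37 to -0.23, and the 17 above them differ by -0.080 to 0.31.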

How the data were processed

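RNA was measured on 8 exon arrays, 1 per embryo. Per the submitters' processing notes the authors' processing involved Expression Console from Affymetrix, the mm9 build and RMA (versions and roles not given in the sources used here), and each deposited value is the log2 signal of 1 probe set on 1 array. RMA includes a normalization between arrays, so differences in total RNA are not seen. Of 625534 probe sets, 303629 had 1 gene symbol in the platform annotation, 5892 several and 316013 none, and older symbols (8 motor probe sets) were updated through the RefSeq table of assembly GRCm38, which was used for names only.

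Probe sets with a mean of at least 6.84 were retained (312767), and genes with at least 4 were tested (12960). Level and signal were fitted by limma 3.58.1 (lmFit, eBayes; R 4.3.3), usage with diffSplice, which pools the spread over a gene's probe sets, or, as an alternative, with the splicing index. Usage was tested without Ptbp2. The p-values were adjusted over the whole table by Benjamini-Hochberg at 0.05. The fits were tried on simulated data in which all probe sets of a gene had the same spread. How diffSplice treats a probe set noisier than the rest of its gene was therefore not tested.

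The labels state no pairing of the arrays by replicate number. Residuals of same-numbered arrays correlated at 0.25, -0.0039, 0.033 and 0.17. For numbers 1 and 4 the same-numbered knockout array was the closest, and for 2 and 3 it was not. These values cannot decide whether the arrays were paired. The motor genes, lists and alternatives were chosen with earlier results of these data known. All 38 genes are named with their level. Values by array are given for the 8 with the smallest level p, every called probe set, and the best probe set of the 10 genes with the smallest usage p. Hook3, Tuba4a and the further Klc1 probe sets were chosen after their values were seen.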

Additional observations from a re-analysis of the deposited data

Results flagged for a closer look

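In 7 of 98 groups of 4 arrays (7.14%), 1 array stood far from the other 3 for its range, where chance gives about 5%, or 1 in 20. At gene level these were Kif13a on knockout array 1 (8.72, the others 8.51 to 8.52), Kif17 on knockout array 3 (7.42, the others 7.55 to 7.56), Kif1b on knockout array 4 (11.52, the others 11.36 to 11.38) and Pafah1b1 on wild type array 1 (11.98, the others 11.55 to 11.61). Among the probe sets with values by array they were Kif3b 4994670 on wild type array 4 (9.42, the others 9.65 to 9.67), Dctn4 5596494 on wild type array 3 (6.75, the others 7.68 to 7.83) and Kif21a 4637631 on wild type array 3 (9.37, the others 8.83 to 8.92). The Kif3b array is the wild type array nearest to the knockout arrays, and the Kif1b array is the knockout array nearest to the wild type mean.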

How the results depend on the processing

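The level test called 0 motor genes under each of the 18 alternatives (38 genes tested, or 36 at the 75th percentile filter, which left out Kif9 and Kif17), where 21 genes kept the sign of their difference and 17 turned it at least once. Klc1 was the one gene with values by array that turned, to -0.00066 when its probe sets were averaged. The count of 4 motor probe sets called in usage stood beside 414 over all genes in the main analysis. It was 4 with the replicate number as a block (replicate block), beside 584 over all genes. With array weights it was 15, where the count over all genes also rose, to 2084. It was 0 with the splicing index and 0 in both models together. With each array left out it was 1 to 6, beside 168 to 858 over all genes, the 1 being without knockout array 1. Without wild type 3 and knockout 3 it was 5, of which 3 were among the 4. In signal, array weights called 1 motor probe set, beside 1183 in all, against 0 and 288 in the main analysis. Among the probe sets with values by array but no call in the main analysis, Kif5b 5209212 was called in 4 alternatives. Kif21a 4637631 was called in 2, and Kif1b 4683035 and Klc1 5444153 in 1 each. Further motor probe sets were called too. A Dctn1 probe set was called without wild type 3, without wild type 3 and knockout 3, and with array weights. Probe sets of Dync1h1 and Kif13a were called without a filter. Array weights also called further probe sets of Kif1b, Kif21b, Kif3b, Kif5b, Klc1 and Ndel1. The cause of these changes was not tested. Only 4 arrays per group were measured, and probe set 4651284 of Dync1li2 was too dim for the test at the 75th percentile filter.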
